A study of Gossypium barbadense with 48 samples.

Results

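The genes described here are 7 subunit genes of the 26S proteasome, the rows annotated as RPT2A, RPN1A, RPN5A, RPN9B and RPN12A among the 69337 genes measured in developing cotton fiber. They were chosen by name, with earlier results of these data known. They carry 5 distinct subunit names, since RPT2A and RPN1A each name a pair of gene models. Names are held only for genes of the mapped D subgenome intervals, so other proteasome genes, including any A subgenome copies, were not analysed here. RNA was sequenced from PimaS-7 and 5917, 2 Gossypium barbadense materials that are the parents of a recombinant inbred population, with no treatment in either. Each material was sampled every 5 days between 0 and 35 days post anthesis (DPA), which gave 16 groups of 3 libraries, 48 libraries in all. The labels call every sample cotton fiber, while the study's methods describe the 0 DPA samples as ovules, so a step from 0 DPA also compares tissues.

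The 26S proteasome is the protease that degrades proteins tagged with ubiquitin. Its barrel-shaped core holds the proteolytic sites, and a regulatory particle caps it. The base of that particle holds a ring of ATPases, the RPT subunits, which unfold the substrate and thread it into the core. The base also holds RPN1, which in yeast docks ubiquitin receptors and shuttle proteins, whereas RPN5, RPN9 and RPN12 belong to the lid. In Arabidopsis, loss of RPT2a gives enlarged cells, RPN1a is needed for embryo development, and RPN12a has been tied to cytokinin responses.

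The 6 genes on chromosome D08 lie in the Pima 3-79 genome (HAU v2.0) at 52472993 to 52477530 (Gbar_D08G017470, RPN9B), 55139017 to 55139835 (Gbar_D08G019160, RPN1A), 55148725 to 55155774 (Gbar_D08G019170, RPN1A), 59161786 to 59165374 (Gbar_D08G021650, RPT2A), 63196860 to 63199921 (Gbar_D08G025010, RPN12A) and 63414099 to 63418387 (Gbar_D08G025240, RPN5A). RPN12A and the D08 copy of RPT2A are on the minus strand and the other 4 on the plus strand. The D11 copy of RPT2A, Gbar_D11G024510, lies on the plus strand of chromosome D11 at 44811269 to 44815139. The 2 RPN1A models are neighbours on the same strand, 8889 bases apart, with no listed gene between them. Gbar_D08G019160 spans 819 bases in that annotation while the length deposited with its counts is 4367 bases, and its neighbour spans 7050 bases with a deposited length of 5184 bases. The counts of these 2 models are therefore treated as uncertain, and reads of the similar RPT2A copies may also be shared.

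Total counts ranged from 28222056 to 43390702 per library. Within groups, Pearson's r between libraries ranged from 0.936 to 0.987 on log2(FPKM + 1), and both the lowest values were in late PimaS-7 fibers, at 30 and 35 DPA. The trimmed-mean (TMM) scaling factors were 0.583 to 1.63 in fibers, against 1.85 to 1.90 in PimaS-7 ovules and 1.77 to 1.85 in 5917 ovules, so the ovule libraries stood apart from the fibers. Levels of a gene across libraries are given below as TMM-scaled CPM (read counts scaled to library size), and levels of different genes as the authors' FPKM, which also divides by length. The markers of the secondary wall of fibers were the transcription factors MYB86 and KNAT7 and the xylan-acetylation gene TBL43. They were chosen with earlier results of these data known. At 25 to 35 DPA they summed to 81.7 to 320 FPKM in PimaS-7 and 129 to 201 FPKM in 5917. At 5 to 20 DPA the same 3 genes summed to 7.58 to 46.9 FPKM in PimaS-7 and 5.14 to 41 FPKM in 5917, so these markers were higher in the late samples.

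All 7 genes had reads in all 48 libraries, and their levels differed widely. Averaged over the 48 libraries, the FPKM was 43.1 for the D11 copy of RPT2A, 41.3 for its D08 copy, 35.7 for RPN5A, 28.4 for RPN12A, 10.1 for RPN9B, 2.44 for Gbar_D08G019170 and 1.03 for Gbar_D08G019160. The RPT2A copies and the lid genes RPN5A and RPN12A were thus the abundant members, and both RPN1A models were scarce, the lowest count of Gbar_D08G019160 being 6 reads in a library. The summed FPKM of the 7 genes was lowest at 10 DPA in PimaS-7, at 132 ± 5.28 (SD, n = 3), and highest at 35 DPA in PimaS-7, at 223 ± 12.7 (n = 3). In 5917 the sum lay between 145 ± 1.79 at 10 DPA and 195 ± 23.4 at 35 DPA (n = 3 each). The D11 copy of RPT2A supplied 37.6% of the sum at 35 DPA and 13.9% at 10 DPA in PimaS-7, and 40.3% at 35 DPA and 13.4% at 10 DPA in 5917.

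**Figure D1:**
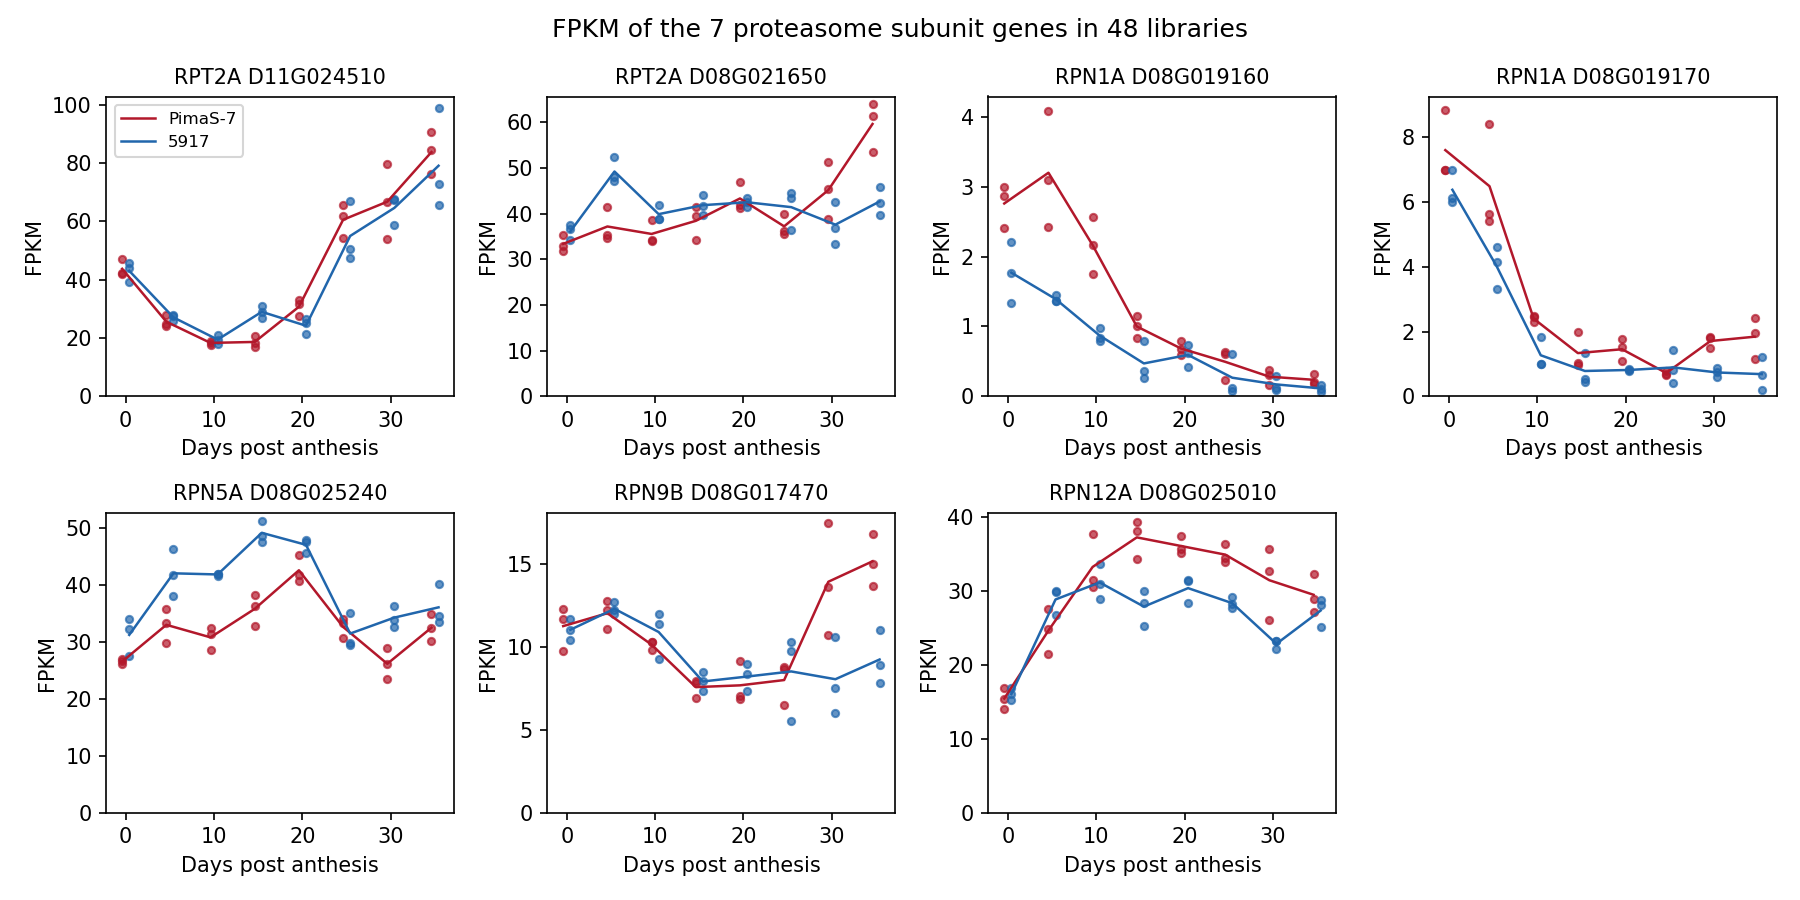
FPKM (vertical axis, linear) of the 7 proteasome subunit genes against days post anthesis; each point is 1 library of PimaS-7 (red) or 5917 (blue), and lines join the means of 3 libraries. The D11 copy of RPT2A is lowest at 10 DPA (18.3 FPKM in PimaS-7 and 19.5 in 5917) and highest at 35 DPA (83.9 FPKM in PimaS-7 and 79.2 in 5917), while both RPN1A models are highest at 0 or 5 DPA.

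The order of the 16 group means differed between the members, and neighbours in that order mostly overlapped. For the D11 copy of RPT2A the group means ran between 18.3 FPKM (PimaS-7, 10 DPA) and 83.9 FPKM (PimaS-7, 35 DPA), a 4.58-fold range, and in 12 of 15 neighbouring pairs of that order the library ranges overlapped. The D08 copy ranged only 1.78-fold, between 33.4 FPKM in PimaS-7 ovules and 59.6 FPKM in PimaS-7 at 35 DPA, with 14 of 15 neighbours overlapping. RPN5A ranged 1.88-fold, being lowest in PimaS-7 at 30 DPA (26.1 FPKM) and highest in 5917 at 15 DPA (49.1 FPKM). In RPN9B all 15 neighbouring pairs overlapped, the extremes being 7.57 FPKM at 15 DPA and 15.2 FPKM at 35 DPA, both in PimaS-7. RPN12A was lowest in PimaS-7 ovules (15.5 FPKM) and highest in PimaS-7 fibers at 15 DPA (37.2 FPKM), a 2.40-fold range. The RPN1A models covered the widest ranges in FPKM, 28.1-fold for Gbar_D08G019160 and 11.1-fold for Gbar_D08G019170, each lowest in 5917 at 35 DPA. That group of Gbar_D08G019160 had only 6 to 15 reads per library. In CPM both ranges were narrower, and Gbar_D08G019170 was lowest in 5917 at 15 DPA (3.76 CPM, against 4.13 CPM at 35 DPA).

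The first question was at which stage step each subunit gene changed within a material. A gene was called when edgeR's quasi-likelihood test gave a Benjamini-Hochberg adjusted p of at most 0.05 over all genes tested and the log2 fold change was 1 or more in either direction. Of 49 tests of the members over the 7 steps of PimaS-7, 1 was called (2.04%), against 13.1% of all gene tests, and 15 passed the adjusted p alone (30.6%, against 23.2%). In 5917, 2 of 49 were called (4.08%, against 14% of all gene tests) and 11 passed the adjusted p alone (22.4%, against 23.8%). The 49 tests are of 7 genes over linked steps, and the difference of these shares from the background was not tested. The background varied between steps. In stage order the share of all genes called was 16.1%, 20.9%, 12.1%, 5.65%, 14.1%, 18.2% and 3.95% over the steps of PimaS-7. Over those of 5917 it was 25.1%, 23.4%, 20.3%, 0.374%, 25.7%, 0.0395% and 0.0182%, so these fits called hardly any gene after 25 DPA in 5917. That low count depended on the fit. At 30 over 25 DPA and 35 over 30 DPA in 5917, DESeq2 called 1507 and 822 genes. An edgeR fit of all 48 libraries called 2202 and 771. The 3 called steps were the rise of the D11 copy of RPT2A at 25 DPA in both materials and the rise of RPN12A at 5 DPA in 5917.

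**Figure D2:**
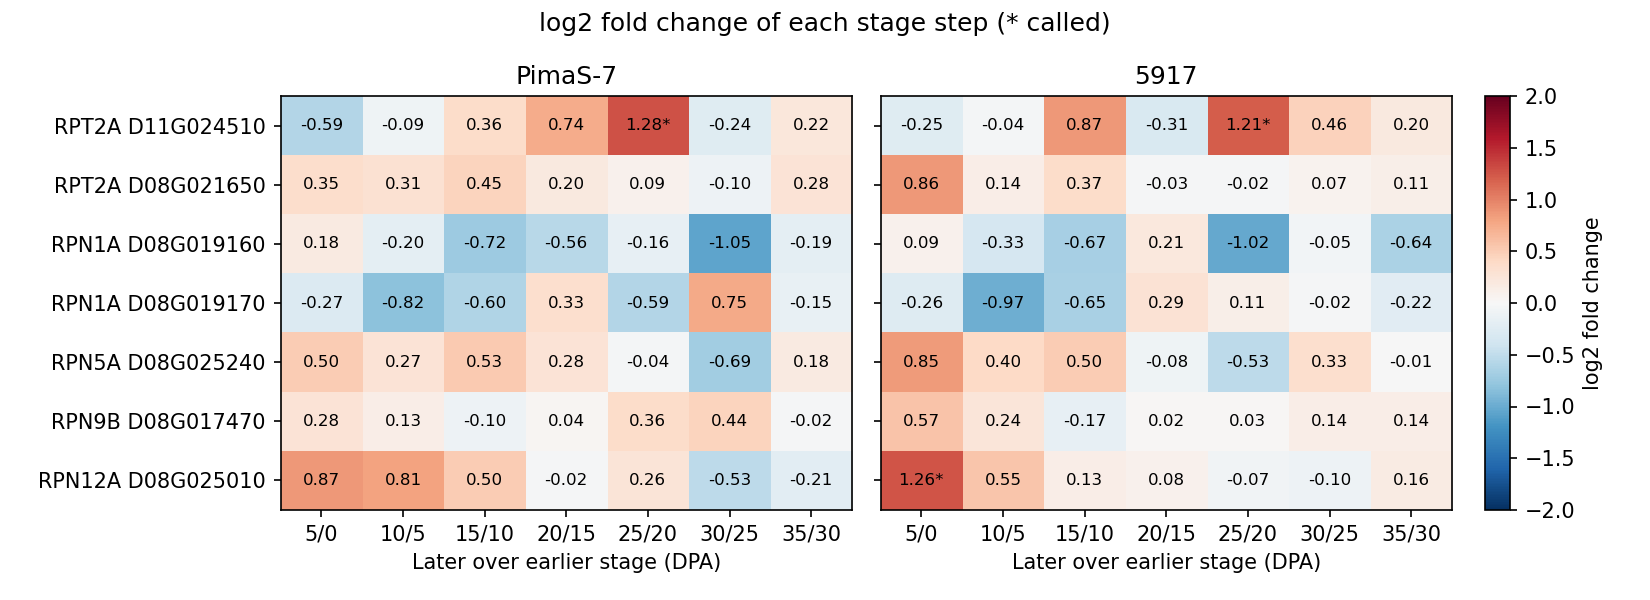
log2 fold change of each member (rows) at each step (columns, later over earlier stage) in PimaS-7 (left) and 5917 (right), from edgeR on 6 libraries a step; red is higher at the later stage, blue is lower, and an asterisk marks a call. The 3 calls are 1.28 and 1.21 for the D11 copy of RPT2A at 25 over 20 DPA and 1.26 for RPN12A at 5 over 0 DPA in 5917.

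RPT2 is the ATPase whose tail opens the gate of the core in yeast, and the D11 copy of RPT2A had the largest late change of the members. In PimaS-7 it had 171, 155 and 158 CPM at 25 DPA, against 66.3, 72.2 and 59.3 CPM at 20 DPA. In 5917 it had 149, 145 and 102 CPM at 25 DPA, against 53.1, 59.4 and 60.4 CPM at 20 DPA. All 6 libraries at 25 DPA were above all 6 at 20 DPA. The log2 fold change was 1.28 ± 0.12 (SE) in PimaS-7 (edgeR, adjusted p = 0.00067, n = 3 per stage) and 1.21 ± 0.21 in 5917 (adjusted p = 0.0040, n = 3 per stage). It was the only member of 7 called at this step in either material, where 14.1% of all genes were called in PimaS-7 and 25.7% in 5917. In PimaS-7 the change was 0.96 with limma on log2(FPKM + 1), just under the fold threshold, and 1.22 to 1.36 with edgeR when single libraries were left out. As these are bulk samples, a change in the mixture of cells and a change in RNA per cell cannot be told apart.

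Before this rise the D11 copy had fallen between ovule and fiber. In PimaS-7 it had 31.1, 32.6 and 32 CPM at 5 DPA, against 43.9, 47.5 and 43 CPM at 0 DPA, a log2 fold change of -0.59 ± 0.12 (edgeR, adjusted p = 0.0084, n = 3 each). In 5917 the change at this step was -0.25 by TMM-scaled counts (adjusted p = 0.094), while its mean in FPKM was 27.1 (25.8 to 28) at 5 DPA, against 43.1 (39.3 to 45.8) at 0 DPA, with no overlap. The levels then stayed high after 25 DPA. At 35 DPA the libraries had 123, 180 and 130 CPM in PimaS-7 and 183, 278 and 162 CPM in 5917, and neither of the last 2 steps passed the test in either material.

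The D08 copy of RPT2A, annotated with the same protein name, changed less. Its only steps past the adjusted p were 15 over 10 DPA in PimaS-7 (log2 fold change 0.45, edgeR, adjusted p = 0.019), 15 over 10 DPA in 5917 (0.37, adjusted p = 0.011) and 5 over 0 DPA in 5917 (0.86, adjusted p = 0.00070), with n = 3 libraries per stage. In the last of these it had 73.0, 78.7 and 78.7 CPM at 5 DPA, against 43.4, 40.8 and 38.5 CPM at 0 DPA. In FPKM that step was smaller, with means of 49.2 at 5 DPA and 36.1 at 0 DPA. With limma on log2(FPKM + 1) the changes at 15 over 10 DPA were 0.11 in PimaS-7 (adjusted p = 0.47) and 0.07 in 5917 (adjusted p = 0.56). At 25 over 20 DPA its log2 fold change was 0.09 in PimaS-7 and -0.02 in 5917, neither past the test.

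The ratio of the 2 RPT2A genes within a library does not depend on the scaling between libraries. Taken from counts in place of FPKM, it differs only by a fixed length factor, so its differences between stages must be the same. In FPKM the D11 copy was the higher in ovules, with a ratio of 1.27 to 1.33 in PimaS-7 and 1.05 to 1.29 in 5917. At 5 to 20 DPA it was the lower in every fiber library, with ratios of 0.466 to 0.804 in PimaS-7 and 0.461 to 0.783 in 5917. At 25 to 35 DPA it was the higher again in every library, with ratios of 1.05 to 2.05 in PimaS-7 and 1.16 to 2.15 in 5917. The ranges of late and earlier fibers did not overlap in either material. By counts the D11 copy was the lower in replicate 1 of PimaS-7 at 30 DPA (3224 reads, against 3308 of the D08 copy). By counts it was also the lower in replicate 1 of 5917 at 0 DPA (2443 reads, against 2510).

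On the log2 scale the ratio averaged 0.58 ± 0.26 (SD, n = 9) at 25 to 35 DPA and -0.76 ± 0.28 (n = 12) at 5 to 20 DPA in PimaS-7. In 5917 it averaged 0.69 ± 0.28 (n = 9) at 25 to 35 DPA and -0.81 ± 0.22 (n = 12) at 5 to 20 DPA. The difference corresponded to a 2.53-fold shift in PimaS-7 and a 2.82-fold shift in 5917. A two-sided exact permutation test gave p = 3.4e-06 in each material, adjusted p = 3.4e-06 over the 2 tests, the smallest p that 293930 regroupings of 9 and 12 libraries can give. The test treats libraries of different stages as exchangeable, although each stage gave 3 of them. Its p therefore does not measure the spread between stages, and it is at its floor because the ranges did not overlap. The widest spread of the ratio within a group was at 30 DPA in PimaS-7, with 1.05, 1.48 and 2.05 in the 3 libraries, and leaving out any single library kept the log2 difference between 1.28 and 1.40 in PimaS-7 and between 1.45 and 1.56 in 5917.

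**Figure D3:**
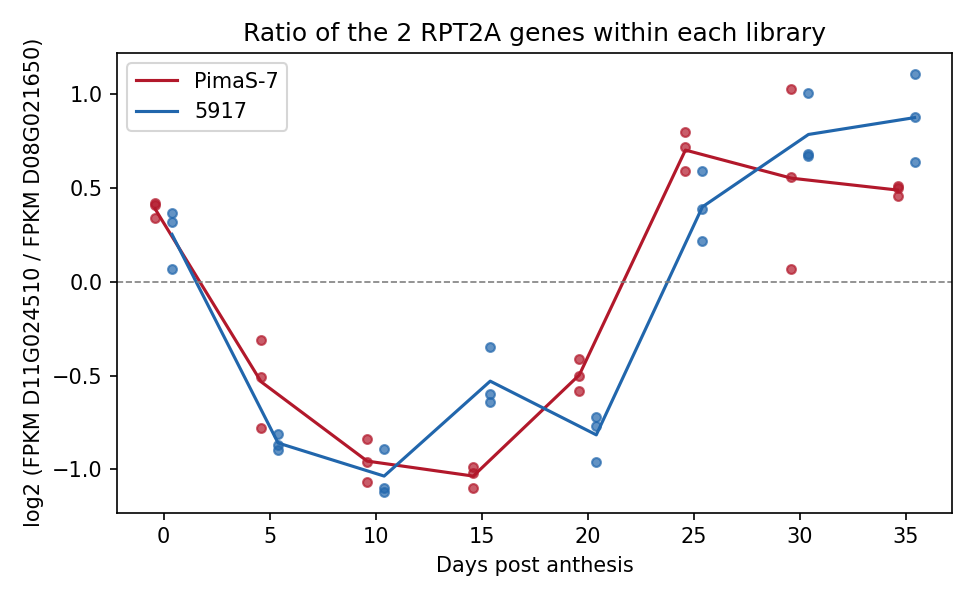
log2 ratio of the FPKM of the D11 over the D08 copy of RPT2A (vertical axis) against days post anthesis; each point is 1 library of PimaS-7 (red) or 5917 (blue), lines join group means, and the dashed line marks equal FPKM. All 18 libraries at 25 to 35 DPA lie above the line, and all 24 fiber libraries at 5 to 20 DPA lie below it.

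The second question was which members differed between late fibers (25 to 35 DPA) and earlier fibers (5 to 20 DPA), in 1 fit of all 48 libraries. In each material 2 of 7 members were called, 1 higher and 1 lower, where 30.6% of all genes were called in PimaS-7 (14.9% higher, 15.7% lower) and 31.8% in 5917 (17.1% higher, 14.7% lower). The 2 members were the D11 copy of RPT2A and Gbar_D08G019160 in both materials. By the adjusted p alone, 6 of 7 members passed in PimaS-7 and 3 of 7 in 5917, against 56.6% and 57.9% of all genes. The median log2 fold change of the 7 was 0.22 in PimaS-7 and 0.15 in 5917, against -0.01 and 0.00 over all genes tested. The members were thus called at a share near the background.

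The D11 copy of RPT2A averaged 144 ± 23.6 CPM (SD, n = 9) in late and 41.9 ± 15.2 CPM (n = 12) in earlier fibers of PimaS-7, a log2 fold change of 1.85 ± 0.09 (edgeR, adjusted p = 1e-19). In 5917 it averaged 174 ± 51.6 CPM (n = 9) in late and 51.7 ± 14.8 CPM (n = 12) in earlier fibers, a change of 1.78 ± 0.09 (adjusted p = 1.8e-19). The late and earlier libraries did not overlap in either material. The secondary wall markers were also higher in this comparison, 3 of 3 being called higher in each material. As they were chosen with earlier results of these data known, that count is not independent evidence of stage. Of all genes, 14.9% were called higher in PimaS-7 and 17.1% in 5917. Among late PimaS-7 fibers the marker sum fell, averaging 302, 147 and 103 FPKM at 25, 30 and 35 DPA. The D11 copy averaged 60.6, 66.8 and 83.9 FPKM there. In 5917 the sum averaged 145, 171 and 183 FPKM at these stages, and the D11 copy 55.1, 64.7 and 79.2 FPKM. Among the markers of green tissue, of which 4 of 7 were measured, the sum was 1.60 to 18.1 FPKM in late and 1.30 to 5.45 FPKM in earlier fibers of PimaS-7, and 18.5 to 42.2 FPKM in late and 0.581 to 4.31 FPKM in earlier fibers of 5917. That sum rests on PSBW, a photosystem II subunit, the only one of the 4 that was called higher. Markers of dividing cells summed to 25.2 to 43.5 FPKM in late and 36.7 to 100 FPKM in earlier PimaS-7 fibers. In 5917 they summed to 23 to 48.1 FPKM in late and 39.3 to 97.8 FPKM in earlier fibers. From 10 DPA on, that sum rests mainly on Gbar_D08G023550. In PimaS-7 this gene averaged 37.3 of 44.5 FPKM at 15 DPA and 22.5 of 27.7 FPKM at 25 DPA. In 5917 it averaged 33.3 of 40.6 FPKM at 15 DPA and 22.4 of 27.7 FPKM at 30 DPA. At 5 DPA it averaged only 17.3 of 78.4 FPKM in PimaS-7 and 24.7 of 70.2 FPKM in 5917. The seed markers, 2 of 4 measured, summed to at most 0.0974 FPKM in late and 1.06 to 5.99 FPKM in earlier fibers of PimaS-7, and to at most 0.306 FPKM in late and 3.24 to 6.39 FPKM in earlier fibers of 5917. The earlier seed sum rests on Gbar_D08G020900, as the other gene, LEA6, had group means of at most 0.0462 FPKM in fibers. The part of these markers in the RPT2A result was not tested.

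The D08 copy of RPT2A was higher in late fibers of PimaS-7 by 0.51 ± 0.07 on the log2 scale (edgeR, adjusted p = 2.4e-07), with libraries that overlapped. Its difference in 5917 was 0.26 ± 0.07 (adjusted p = 0.0025) by TMM-scaled counts and -0.10 on log2(FPKM + 1), so its direction there depends on the scaling.

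**Figure D4:**
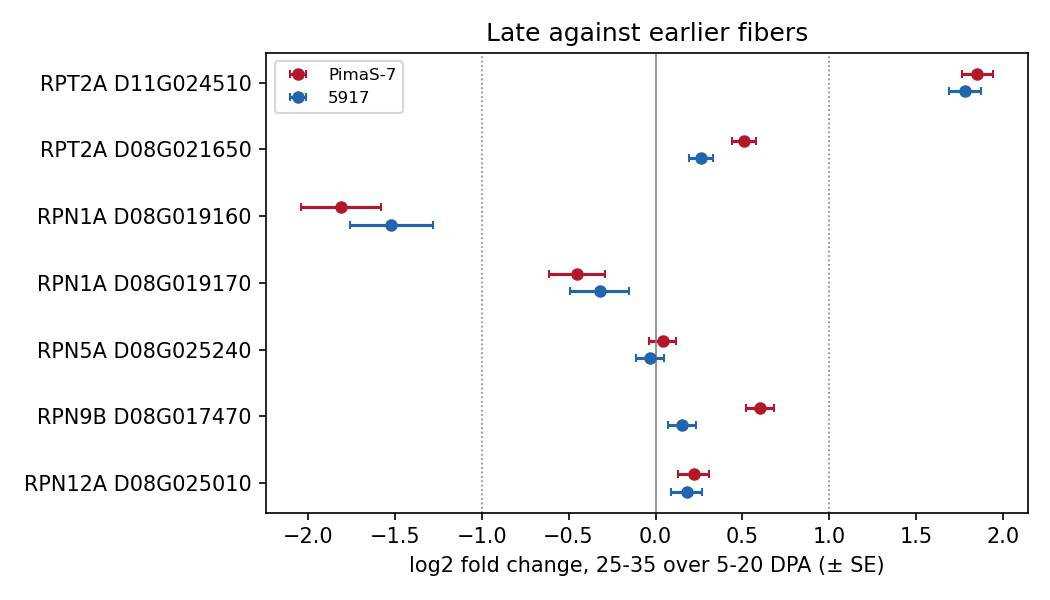
log2 fold change (horizontal axis) of each member at 25 to 35 DPA over 5 to 20 DPA, from 1 edgeR fit of 48 libraries; points are PimaS-7 (red) and 5917 (blue), bars are ± 1 SE, and dotted lines mark the fold threshold. The D11 copy of RPT2A lies beyond 1 in both materials (1.85 and 1.78) and Gbar_D08G019160 beyond -1 in both (-1.81 and -1.52).

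RPN1, the scaffold of the base, was represented by 2 adjacent models that both had their highest group means at 0 or 5 DPA. Gbar_D08G019160 averaged 0.972 ± 0.582 CPM (SD, n = 9) in late and 3.36 ± 1.44 CPM (n = 12) in earlier PimaS-7 fibers, a log2 fold change of -1.81 ± 0.23 (edgeR, adjusted p = 2.4e-08). In 5917 it averaged 0.644 ± 0.377 CPM (n = 9) in late and 1.87 ± 0.652 CPM (n = 12) in earlier fibers, a change of -1.52 ± 0.24 (adjusted p = 1.1e-06). Late and earlier libraries overlapped in both materials. With limma on log2(FPKM + 1), a scale that compresses changes of genes this low, the change was -0.95 in PimaS-7 and -0.61 in 5917, under the fold threshold.

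Gbar_D08G019170 fell earlier. In PimaS-7 it had 8.97, 7.06 and 9.18 CPM at 10 DPA, against 14.7, 10.3 and 18.3 CPM at 5 DPA (log2 fold change -0.82 ± 0.24, edgeR, adjusted p = 0.031, n = 3 each). In 5917 it had 7.73, 4.71 and 4.71 CPM at 10 DPA, against 11.7, 10.1 and 11.9 CPM at 5 DPA (-0.97 ± 0.22, adjusted p = 0.011, n = 3 each). The libraries of the 2 stages did not overlap in either material, and both changes stayed just under the fold threshold with edgeR. In PimaS-7 the adjusted p was lost when any of 5 of the 6 libraries was left out. In 5917 the change became a call without replicate 2 at 5 DPA (-1.04) or replicate 1 at 10 DPA (-1.26). From 25 to 30 DPA in PimaS-7 it rose again, to 7.41, 7.36 and 7.47 CPM at 30 DPA, against 4.49, 4.78 and 4.81 CPM at 25 DPA (0.75 ± 0.17, adjusted p = 0.018). The ratio of FPKM to the value implied by counts and deposited length varied between 0.981 and 1.97 over libraries for this gene and between 1.15 and 2.35 for its neighbour, against 0.808 to 0.889 for both RPT2A copies, so the 2 units do not give the same folds for the RPN1A models.

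Among the lid genes, RPN12A changed mainly in the first steps. In 5917 it had 36.7, 38.6 and 31.7 CPM at 5 DPA, against 15.4, 14.2 and 13.6 CPM at 0 DPA, a log2 fold change of 1.26 ± 0.13 (edgeR, adjusted p = 0.00023, n = 3 each). It was the 1 member of 7 called at this step in 5917, where 25.1% of all genes were called. In PimaS-7 it had 29.6, 28.9 and 21 CPM at 5 DPA, against 13.7, 14.6 and 12.3 CPM at 0 DPA, a change of 0.87 ± 0.16 (adjusted p = 0.0069, n = 3 each), which became 1.05 and a call without replicate 3 at 5 DPA. With limma on log2(FPKM + 1) the 5917 change was 0.81, under the fold threshold. The rise went on at 10 over 5 DPA, by 0.81 in PimaS-7 (adjusted p = 0.013) and 0.55 in 5917 (adjusted p = 0.014), against 0.42 (adjusted p = 0.051) and 0.11 (adjusted p = 0.44) with limma on log2(FPKM + 1). Over 25 to 35 DPA against 5 to 20 DPA it differed by 0.22 in PimaS-7 (adjusted p = 0.042) by TMM-scaled counts and by -0.02 on log2(FPKM + 1).

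RPN5A, a lid subunit with a PCI domain, rose in CPM at 5 over 0 DPA by 0.50 in PimaS-7 (edgeR, adjusted p = 0.039) and 0.85 in 5917 (adjusted p = 0.0035), and at 15 over 10 DPA by 0.53 in PimaS-7 (adjusted p = 0.011) and 0.50 in 5917 (adjusted p = 0.0033), with n = 3 libraries per stage. At 10 over 5 DPA in 5917 it rose by 0.40 by TMM-scaled counts (adjusted p = 0.045) and moved by -0.0021 on log2(FPKM + 1). On that scale limma gave 0.30 at 5 over 0 DPA in PimaS-7 (adjusted p = 0.10), and at 15 over 10 DPA 0.21 in PimaS-7 (adjusted p = 0.14) and 0.23 in 5917 (adjusted p = 0.059). Between late and earlier fibers it differed by 0.04 ± 0.08 in PimaS-7 and -0.03 ± 0.08 in 5917, neither past the test.

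RPN9B, another PCI subunit of the lid, passed the adjusted p at 1 step, 5 over 0 DPA in 5917 (0.57 ± 0.12, edgeR, adjusted p = 0.0056, n = 3 each). In late against earlier fibers RPN9B was higher by 0.60 ± 0.08 in PimaS-7 (edgeR, adjusted p = 8.5e-08), with 30.4 ± 6.24 CPM (SD, n = 9) in late and 19.9 ± 1.74 CPM (n = 12) in earlier fibers and no overlap in CPM. With limma on log2(FPKM + 1) the PimaS-7 difference was 0.33 (adjusted p = 0.0019), and in FPKM late and earlier libraries overlapped. In 5917 it averaged 26.9 ± 4.02 CPM (n = 9) in late and 24.2 ± 2.39 CPM (n = 12) in earlier fibers, a difference of 0.15 ± 0.08 that did not pass (adjusted p = 0.12). The 3 PimaS-7 libraries at 30 DPA were spread between 24 and 43.9 CPM, and without any 1 library the PimaS-7 value stayed between 0.52 and 0.67.

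The third question was where the materials differed. Over the 8 stages, 1 of 56 member tests of PimaS-7 over 5917 was called (1.79%, against 8.24% of all gene tests), and 8 passed the adjusted p alone (14.3%, against 13.5%). The call was Gbar_D08G019160 at 10 DPA, where 5.08% of all genes were called. It had 3.67, 4.55 and 4.62 CPM in PimaS-7, against 2.50, 1.80 and 1.85 CPM in 5917, a log2 fold change of 1.07 ± 0.23 (edgeR, adjusted p = 0.026, n = 3 each). The 2 groups did not overlap, but leaving out any library but replicate 1 of 5917 ended the call, with fold changes between 0.97 and 1.23 over the 6 runs, and so did 1 fit of all 48 libraries (adjusted p = 0.11). By stage, 2.51%, 4.89%, 5.08%, 12.6%, 8.91%, 6.91%, 7.83% and 18.2% of all genes were called between the materials, in order from 0 to 35 DPA.

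Differences under the fold threshold lay mainly at 10 and 15 DPA. The D11 copy of RPT2A had 35.8, 42.2 and 39.7 CPM at 15 DPA in PimaS-7, against 76.1, 67.7 and 71.7 CPM in 5917, a log2 fold change of -0.85 ± 0.09 (edgeR, adjusted p = 0.00075, n = 3 each). RPN5A had 96.6, 102 and 114 CPM at 15 DPA in PimaS-7, against 160, 168 and 171 CPM in 5917 (-0.65 ± 0.08, adjusted p = 0.0011). It was also lower in PimaS-7 at 10 DPA (-0.64, adjusted p = 0.013) and at 35 DPA (-0.69, adjusted p = 0.045). The difference at 35 DPA no longer passed in 5 of 6 runs that left out a library (-0.53 to -0.82). In CPM the groups did not overlap in these 3 comparisons of RPN5A, while at 35 DPA the libraries had 30.1 to 34.9 FPKM in PimaS-7, against 33.5 to 40.1 FPKM in 5917, and limma on log2(FPKM + 1) gave -0.14 (adjusted p = 0.48). The D08 copy of RPT2A was lower in PimaS-7 at 10 DPA (-0.38, adjusted p = 0.048) and 15 DPA (-0.34, adjusted p = 0.026), and Gbar_D08G019170 was higher in PimaS-7 at 20 DPA (0.65, adjusted p = 0.043). These 3 differences no longer passed in 6, 3 and 5 of 6 runs that left out a library, and that of RPN5A at 10 DPA in 3 of 6. With limma on log2(FPKM + 1) they were -0.16, -0.12 and 0.43 and did not pass (adjusted p = 0.28, 0.38 and 0.055). No member passed the test at 0, 5, 25 or 30 DPA.

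The fourth question was whether a step itself differed between the materials. Over the 7 step interactions 2 of 49 member tests were called (4.08%, against 5.22% of all gene tests) and 3 passed the adjusted p alone (6.12%, against 6.59%). In stage order 1.65%, 0.0849%, 6.89%, 6.77%, 13.7%, 8.0% and 0.0262% of all genes were called. The first was the D11 copy of RPT2A from 15 to 20 DPA, a step at which 6.77% of all genes were called. In PimaS-7 it had 66.3, 72.2 and 59.3 CPM at 20 DPA, against 35.8, 42.2 and 39.7 CPM at 15 DPA, while in 5917 it had 53.1, 59.4 and 60.4 CPM at 20 DPA, against 76.1, 67.7 and 71.7 CPM at 15 DPA. The step was 0.74 in PimaS-7 (edgeR, adjusted p = 0.0080) and -0.31 in 5917 (adjusted p = 0.27), and the difference of the steps was 1.07 ± 0.14 (adjusted p = 0.00055, n = 3 in each of 4 groups). It remained called when each of the 12 libraries was left out in turn, with values between 1.00 and 1.14. With limma on log2(FPKM + 1) it was 0.94 (adjusted p = 0.0032), under the fold threshold.

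The same gene differed in the opposite direction 1 step earlier. From 10 to 15 DPA it rose by 0.36 in PimaS-7 (edgeR, adjusted p = 0.027) and by 0.87 in 5917 (adjusted p = 0.00024), a difference of -0.52 ± 0.13 (adjusted p = 0.023). The rise in PimaS-7 no longer passed in 5 of 6 runs that left out a library, and with limma on log2(FPKM + 1) it was 0.02 (adjusted p = 0.88). The secondary wall markers summed to 22.6 to 46.9 FPKM in PimaS-7 and 19.3 to 26.6 FPKM in 5917 at 20 DPA, and to 9.12 to 11 FPKM in PimaS-7 and 33.7 to 41 FPKM in 5917 at 15 DPA. The part of that difference in the RPT2A values was not tested.

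The second called interaction was RPN5A from 25 to 30 DPA, where 8.0% of all genes were called. In PimaS-7 it had 83.9, 70.5 and 61.1 CPM at 30 DPA, against 126, 124 and 121 CPM at 25 DPA, a step of -0.69 ± 0.14 (edgeR, adjusted p = 0.013). In 5917 it had 156, 120 and 129 CPM at 30 DPA, against 110, 129 and 83.3 CPM at 25 DPA, libraries that overlapped. The difference of the steps was -1.04 ± 0.28 (adjusted p = 0.043, n = 3 in each of 4 groups). The call ended when any of 9 of the 12 libraries was left out, the exceptions being replicate 2 of 5917 at 25 and at 30 DPA and replicate 1 of PimaS-7 at 30 DPA. The values lay between -0.91 and -1.20 over these runs, and the difference was -0.43 with limma on log2(FPKM + 1) (adjusted p = 0.15).

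Over all stages at once, 3 of 7 members showed some difference in course between the materials, where 44.2% of all genes passed this test. They were the D11 copy of RPT2A (edgeR, adjusted p = 0.00089), RPN5A (adjusted p = 0.0012) and RPN12A (adjusted p = 0.026). In late against earlier fibers 0 of 7 members were called as different between the materials (10.1% of all genes were), 2 had an unadjusted p under 0.05, and DESeq2 and limma on either FPKM scale also called 0. RPN9B alone passed the adjusted p (22.8% of all genes did), with a difference of 0.45 ± 0.12 (edgeR, adjusted p = 0.0046). For the D11 copy of RPT2A the late change differed by 0.07 ± 0.12 between the materials.

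A comparison of 35 DPA fibers with 0 DPA ovules was added after the values were seen. In it, by TMM-scaled counts, all 7 members were called in both materials, 5 higher and 2 lower in fibers. Of all genes, 44.7% were called in PimaS-7 (23.5% higher, 21.1% lower) and 51.6% in 5917 (25.6% higher, 26.1% lower). The 2 lower genes were the RPN1A models, with log2 fold changes in Gbar_D08G019160 of -2.69 ± 0.43 in PimaS-7 and -2.34 ± 0.45 in 5917, and in Gbar_D08G019170 of -1.34 ± 0.30 in PimaS-7 and -1.66 ± 0.31 in 5917 (n = 3 per group). DESeq2 called 5 of 7 members in PimaS-7 and 6 of 7 in 5917, and limma on either FPKM scale, which changes the unit, the filter and the test together, called 2 of 7 in each material. The cause of the lost calls was not tested. The change of RPN9B in 5917 turned to -0.24 on log2(FPKM + 1), against 1.02 by TMM-scaled counts.

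The members did not vary as 1 group. Over the 48 libraries Pearson's r of log2(FPKM + 1) was 0.83 between the 2 RPN1A models, 0.29 between the 2 RPT2A copies, and 0.38 between RPN12A and RPN5A. Between Gbar_D08G019170 and RPN12A it was -0.63, and between the D11 copy of RPT2A and RPN5A it was -0.43. These values describe libraries that share stage and depth and carry no test. Among 39126 genes with a mean FPKM of at least 1, the gene most like the D11 copy of RPT2A was Gbar_D04G008200 (r = 0.965), and the gene most like the D08 copy was Gbar_A08G020770 (r = 0.904). The 3 most similar genes of each member had r between 0.808 and 0.971, and all 21 of them carry no name in the tables used.

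The other measured genes of the pathway gave the setting. The 2 genes annotated as RPT6A, another ATPase of the base, were at or near 0, with group means of at most 0.654 FPKM. NAC078, whose Arabidopsis relative drives proteasome genes under proteotoxic stress, had group means of at most 0.395 FPKM and was not called in late against earlier fibers. Of 5 genes for ubiquitin activation and conjugation, 0 were called by edgeR in that comparison, against 30.6% of all genes in PimaS-7 and 31.8% in 5917. By the adjusted p alone 1 was higher in PimaS-7 and 4 in 5917, where 56.6% and 57.9% of all genes passed in either direction. The median of these 5 was 0.06 in PimaS-7 and 0.57 in 5917, against -0.01 and 0.00 over all genes. The conjugating enzyme gene UBC10 had group means of 45.2 to 79.3 FPKM. Those of RPT2A were 33.4 to 59.6 FPKM for the D08 copy and 18.3 to 83.9 FPKM for the D11 copy.

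Of 3 measured deubiquitinating enzymes 0 were called in late against earlier fibers, while mindy1 was higher by 0.51 in PimaS-7 (edgeR, adjusted p = 1.2e-06) and UCH3 by 0.39 in 5917 (adjusted p = 0.013). In the cullin ligase list, SGT1B and the Skp1-like ASK21 were measured and neither passed. Of these lists, autophagy held the largest changes. ATG8F, which coats the autophagosome, rose by 2.26 ± 0.16 in PimaS-7 (adjusted p = 1.4e-14) and 2.51 ± 0.16 in 5917 (adjusted p = 4.9e-16). ATG18H rose by 1.43 in PimaS-7 and 1.90 in 5917, and ATG9, the membrane protein of the pathway, fell by 1.79 in PimaS-7 and 1.58 in 5917. In all, 3 of 4 measured autophagy genes were called in each material, 2 higher and 1 lower, as ATG3 passed the adjusted p alone. Of all genes, 30.6% were called in PimaS-7 (14.9% higher, 15.7% lower) and 31.8% in 5917 (17.1% higher, 14.7% lower). The difference of these lists from that background was not tested.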

How the data were processed

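RNA of PimaS-7 and 5917 was sequenced in 48 libraries. After trimming, reads were mapped by the authors to the HAU v2.0 assembly of Pima 3-79 using HISAT2, and StringTie gave expression levels. The HISAT2 version and the counting program are not given in the sources used here. For every gene the authors deposited a raw count (whole reads) and an FPKM in each library, beside the length of the gene.

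The 7 members, the gene lists and the comparisons were chosen with earlier results of these data known. Counts were tested with edgeR 4.0.16 in R 4.3.3 (quasi-likelihood test with TMM factors, after filterByExpr at its count minimum of 10). Each step or material comparison was fitted on its 6 libraries, each interaction on 12, and late comparisons on all 48. Standard errors are the fold change over the root of F. Alternatives used DESeq2 1.42.0, limma 3.58.1 on log2(FPKM + 1) or log2(FPKM + 0.1) for genes above 0.5 FPKM in at least 3 libraries, and left out each library. For the late comparisons these refits kept the genes and dispersion trend of all 48 libraries. Tables were handled with pandas 2.3.3. Fits were tested on simulated data.

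Genes named are the members, the listed pathway and marker genes, and the 3 genes most like each member. Listed genes without a count are not analysed here. The study calls its replicates biological; whether each came from separate plants is not given in the sources used here, so p-values measure the spread between these samples. Library pairs within a group differed by 17.1 or more chi-square units per degree of freedom, so none was a repeated library. No pairing by replicate number was found, as 0 of 22 comparisons had all 3 correlations of deviations over 0.1. With 3 libraries per group this rule cannot exclude pairing. Between the materials at 5 DPA the 3 correlations were 0.02, 0.19 and 0.2.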

Additional observations from a re-analysis of the deposited data

Results flagged for a closer look

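The tests of a difference between the materials passed for 7 results of the members. The step of Gbar_D11G024510 (RPT2A) differed by -0.52 on the log2 scale from 10 to 15 DPA and by 1.07 from 15 to 20 DPA, PimaS-7 minus 5917. The step of Gbar_D08G025240 (RPN5A) from 25 to 30 DPA differed by -1.04. The change of Gbar_D08G017470 (RPN9B) in late against earlier fibers differed by 0.45. Some difference in course over all stages had an edgeR adjusted p of 0.026 for RPN12A, 0.0012 for RPN5A and 0.00089 for the D11 copy of RPT2A.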

How the results depend on the processing

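Results depended on the unit: against TMM-scaled counts, limma moved the median log2 change of all genes by -0.67 to 0.30 on log2(FPKM + 1) and by -1.17 to 0.49 on log2(FPKM + 0.1) over the comparisons, and DESeq2 by -0.11 to 0.10. DESeq2 size factors in edgeR moved it by -0.17 to 0.05. The cause of the lost calls below was not tested.

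Member calls over the PimaS-7 steps numbered 1, and 3 on log2(FPKM + 0.1) and 2 in 1 fit of all 48 libraries. The replicate block, by numbers that did not pair the libraries, moved the 2 calls over the 5917 steps to 3, the 1 call between materials to 0 (adjusted p = 0.076 for Gbar_D08G019160) and the 2 interactions to 1 (adjusted p = 0.051 for Gbar_D08G025240), and in 0 of 22 comparisons did every library correlate best with its own number. The 1 call between materials became 0 on log2(FPKM + 1), 3 on log2(FPKM + 0.1) and 0 in the fit of 48. The 2 calls in late fibers became 1 in each material on log2(FPKM + 1). The 2 called interactions became 1 without the filter and 0 on both FPKM scales. Members with any difference in course numbered 3, and 6 on log2(FPKM + 1). The 7 calls of 35 over 0 DPA became 2 on both FPKM scales in each material. Leaving out single libraries gave 1 to 2 calls over the PimaS-7 steps, 2 to 3 over the 5917 steps, 0 to 2 between materials, 1 to 2 interactions, 2 in each late comparison, 0 for their difference, and for 35 over 0 DPA 5 to 7 in PimaS-7 and 6 to 7 in 5917. Leave-out runs of interactions were added after seeing the data. The 2 calls over the PimaS-7 steps came without replicate 2 or 3 at 5 DPA. Between materials 0 calls came without any 10 DPA library but replicate 1 of 5917, and 2 without replicate 2 of 5917 at 15 DPA or replicate 2 of PimaS-7 at 5 DPA.

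The sign turned on the FPKM scales for RPN5A at 10 over 5 DPA in 5917 (-0.0021 on both), RPN12A in late PimaS-7 fibers (-0.02 on both), the D08 copy of RPT2A in late 5917 fibers (-0.10 on both) and RPN9B at 35 over 0 DPA in 5917 (-0.24 and -0.26). The RPT2A ratio kept its direction and passed in every alternative and leave-out run, though taking it from counts could not change its differences. Counts over all genes differed by more than 1.5 times from edgeR in 11 of 35 comparisons with DESeq2, all higher, and in 22 of 35 on log2(FPKM + 1). For late fibers they were 7631 on log2(FPKM + 1) against 17768 in PimaS-7, and 8073 against 18465 in 5917.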
